A study of Mus musculus with 16 samples.

Results

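This section compares livers of 4 mice treated with Dicretin with livers of 4 mice held on calorie restriction, called restricted livers for short. They are 8 of the 16 liver libraries in the series, and were chosen by the treatment named in the sample title. All groups were C57BL/6 mice, 22 weeks old, made obese by diet and carrying hepatic steatosis, which is fat stored in the liver. Dicretin activates both the GLP1 receptor and the glucagon receptor. The calorie-restricted mice received no agonist and are described as having lost weight to an equal extent by eating less. Which drug group their loss was matched to is not given in the sources used here. The comparison asks which liver transcripts differ between Dicretin and weight loss by restriction. The other 8 libraries come from saline-treated mice (n = 4), also obese and steatotic, and from mice given Semaglutide, an agonist of the GLP1 receptor alone (n = 4). Their levels are given as a background. The design says that the 4 livers of each group were selected for sequencing from a larger group. The dose, the length of treatment, the sex of the mice, the body weights and the hour of tissue collection are not given in the sources used here.

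Glucagon is secreted by the pancreas in fasting and acts mainly on hepatocytes. Its receptor, Gcgr, is coupled to the stimulatory G protein and raises cyclic AMP. Cyclic AMP activates protein kinase A, which phosphorylates the transcription factor CREB, and CREB turns on genes of gluconeogenesis and amino acid breakdown. Glucagon is also known to drive urea synthesis and to lower plasma amino acids, and it opposes insulin, which promotes glycolysis, glycogen storage and fat synthesis through factors such as SREBP1c. Calorie restriction also lowers insulin and raises glucagon, so many textbook glucagon genes also respond to food shortage.

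Levels are in CPM, which are counts scaled to a common normalised library total. Values per liver are listed in the order of the animal numbers in the titles, which are 14, 23, 64 and 65 for Dicretin and 7, 8, 52 and 79 for calorie restriction. A mean level is given ± SD over 4 livers. A log2 fold change is Dicretin over calorie restriction from edgeR's quasi-likelihood fit over all 16 libraries, ± its standard error, and a value of 1 is a 2-fold difference. A gene is called when its Benjamini-Hochberg adjusted p over 12910 tested genes is under 0.05. Higher and lower always mean in Dicretin against calorie restriction unless another pair is named.

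The library totals were 12228917 to 16659621 counts in the Dicretin group and 13500683 to 18755393 in the calorie-restricted group. Dicretin livers had 1951 genes called higher, which is 15.1% of those tested, and 2090 called lower, which is 16.2%. Either direction together made 4041 genes or 31.3%. Changes of at least 2-fold were called higher for 728 genes (5.64%) and lower for 1014 genes (7.85%). The 2 groups of 4 livers did not overlap at all for 1703 genes that were higher (13.2%) and 1965 that were lower (15.2%). Against saline, 972 genes were called in the calorie-restricted livers (7.53%) and 4734 in the Dicretin livers (36.7%), and these comparisons share the saline libraries. In whole liver, fewer cells of a type and less RNA per cell cannot be told apart. In a principal component analysis of the 8 libraries the first component held 55.38% of the variance and separated the groups, at -61.44 to -38.3 for Dicretin and 40.67 to 54.46 for calorie restriction. The second held 15.36% and spread the Dicretin livers, from 53.72 for liver 14 to -37.66 for liver 65. Liver 14 also had the steepest relation between log2 level (as deviation from the mean of the libraries) and log2 exon length, with a slope of 0.1795 against -0.1246 to -0.0047 in the other 3 Dicretin livers and 0.0038 to 0.109 in the calorie-restricted livers.

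**Figure D1:**
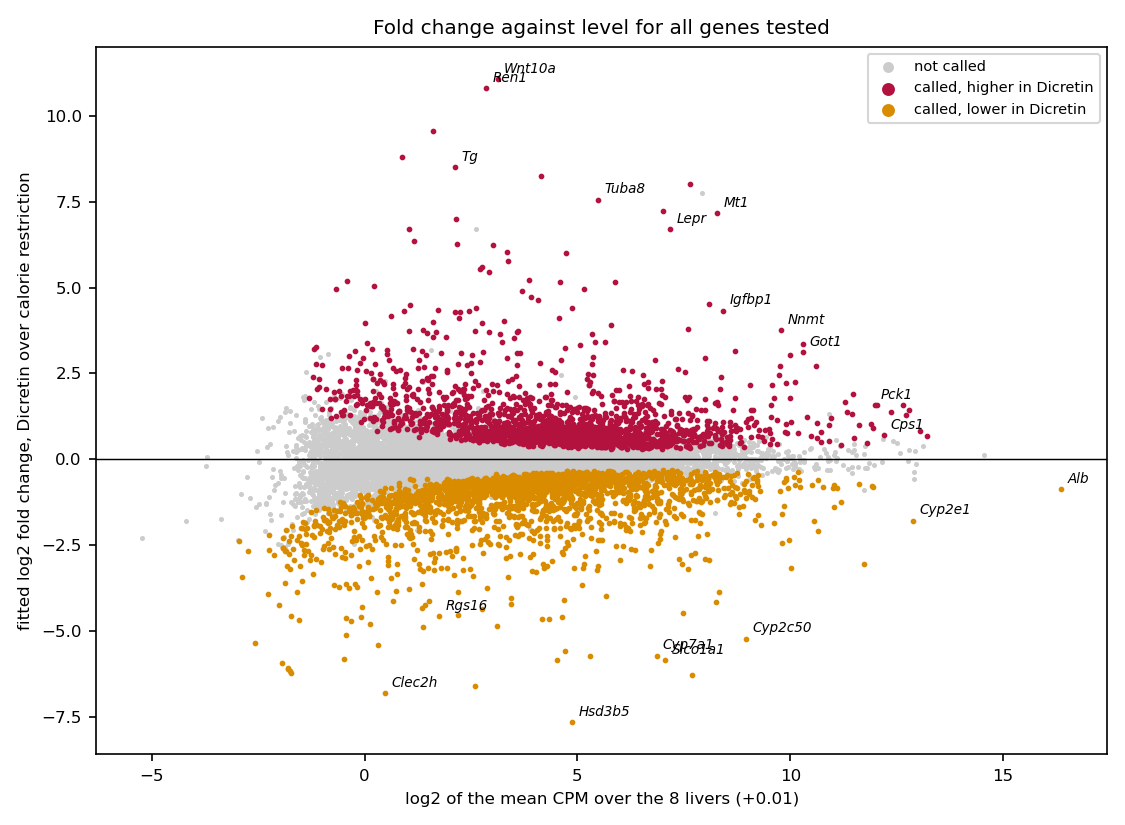
Each point is 1 of the 12910 tested genes; the x axis is the log2 of the mean CPM over the 8 livers and the y axis the fitted log2 fold change of Dicretin over calorie restriction. Called genes spread to both sides at every level, with Wnt10a and Ren1 at the top and Hsd3b5 at the bottom.

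The glucagon receptor was detected in both groups and lower with Dicretin. Gcgr read 102, 119, 151 and 159 CPM in the Dicretin livers and 190.2, 212, 177 and 197 CPM in the calorie-restricted livers, with a log2 fold change of -0.55 ± 0.15 (adjusted p = 0.0114). The GLP1 receptor had 3 counts in all 16 libraries together, 3 in the calorie-restricted and 0 in the Dicretin livers, so its transcript was close to undetected in this tissue. Of 42 tested genes of the chain from receptor to cyclic AMP and its breakdown, 8 were higher and 6 lower, a share close to that of all genes. The largest increase and the largest decrease of this list were phosphodiesterases, which act after cyclic AMP has been made. Pde10a, a phosphodiesterase that breaks down cyclic nucleotides, rose from 0.309 ± 0.18 to 20.1 ± 13.6 CPM (log2 6.03 ± 0.59, adjusted p = 5.08e-07). Pde4d, a cyclic AMP phosphodiesterase, was higher by 1.41 on the log2 scale, and Pde4c, another of that family, was lower at -1.47. Prkar1a, a regulatory subunit that holds protein kinase A inactive, was higher (212 ± 3.6 against 145 ± 13 CPM, log2 0.55 ± 0.11). Grk2, a kinase that desensitises receptors coupled to G proteins, was also higher at 0.60. Without liver 14 the number of lower members of this chain was 12 in place of 6, and without liver 64 or calorie-restricted liver 7 it was 3.

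Most of the known cyclic AMP-responsive genes tested were higher. Of 32 tested, 24 were higher and 0 lower, with a median log2 fold change of 1.49 beside 0.00 for all tested genes. DESeq2 and limma-voom also called 0 lower, and 0 were lower at an unadjusted p under 0.05 in edgeR. Ppargc1a, a coactivator that drives gluconeogenic and mitochondrial genes, read 78.3, 53.3, 60.5 and 64.5 CPM in the Dicretin livers and 12.9, 11, 9.21 and 13.1 CPM in the calorie-restricted livers. Its groups were far apart (log2 2.47 ± 0.16, adjusted p = 6.24e-09), while saline and Semaglutide livers averaged 9.02 and 8.83 CPM. Nr4a1, an immediate early orphan nuclear receptor, read 28, 28.5, 25.2 and 18.9 CPM in the Dicretin livers and 0.993, 0.535, 1.26 and 0.468 CPM in the calorie-restricted livers. All 4 Dicretin livers stood above every restricted liver (log2 4.90 ± 0.29). Its relative Nr4a3 was at 0.102 ± 0.2 CPM under restriction and 8.92 ± 7.2 CPM under Dicretin. Its log2 fold change of 6.27 ± 0.92 was 5.53 without liver 14. Restricted liver 7 held its only counts under restriction, and without that liver Nr4a3 was at least 140.3-fold higher, by a floor of 3 counts over the other 3 restricted livers. Crem, which encodes the cyclic AMP-induced repressor ICER among its products, read 179, 179, 123 and 143 CPM in the Dicretin livers and 34.9, 24.8, 23.9 and 30.5 CPM in the calorie-restricted livers (log2 2.45 ± 0.20). Sik1, a kinase induced by cyclic AMP that restrains CREB coactivators, reached 101 ± 36.7 against 25.2 ± 11.9 CPM. Btg2, an antiproliferative gene of the immediate early class, read 38.3, 63.7, 38.9 and 49.1 CPM in the Dicretin livers and 5.66, 3.9, 5.23 and 5.41 CPM in the calorie-restricted livers (log2 3.23 ± 0.22). Irs2, the insulin receptor substrate that cyclic AMP raises in hepatocytes, was at 20 ± 11.5 against 4.55 ± 2.7 CPM. For Crem, Sik1 and Irs2 the calorie-restricted mean lay at or above the saline mean of 13.2, 11.1 and 2.7 CPM, yet well under the Dicretin mean.

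The consensus sequence that CREB binds is the palindrome TGACGTCA. RefSeq promoter windows of 300 bases on GRCm38.p6, 250 before and 50 after each start site, were matched by symbol for 9996 of the 12910 tested genes. The palindrome was present in at least 1 window of 348 of these genes (3.48%). Counted by gene, it was in 74 of 1549 higher genes (4.78%), 31 of 1580 lower genes (1.96%) and 243 of 6867 genes not called (3.54%). Of 28 cyclic AMP-responsive genes with a window, 3 held it (10.7%). The shorter core TGACG is contained in the palindrome and was read on both strands. It was present in 34.7% of the tested genes with a window and in 20 of these 28 (71.4%). By call it was in 39.6% of higher genes, 28% of lower genes and 35.1% of genes not called. Among genes changed by at least 2-fold it was in 34.5% of the higher and 23.7% of the lower ones. In all 27025 genes of the promoter table the palindrome was in 2.03% and the core in 23%. These are matches of letters and not measured binding. Base composition and the number of windows per gene were not matched between the sets. The next 4 stretches show the palindrome in capitals, 5′ to 3′ on the gene's strand, for some of the called genes that the naming rule picked. Among these genes 4 that were higher and 3 that were lower held it, of which 3 and 1 are shown.
Btg2: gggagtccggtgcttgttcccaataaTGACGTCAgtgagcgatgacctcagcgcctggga
Slc25a25: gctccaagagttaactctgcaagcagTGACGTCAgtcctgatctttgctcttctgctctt
Mdh2: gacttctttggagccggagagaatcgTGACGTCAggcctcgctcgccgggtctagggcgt
Abcg2: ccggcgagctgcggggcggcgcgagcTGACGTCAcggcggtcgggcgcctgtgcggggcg
The Btg2 stretch is chr1:134079288-134079347 on the minus strand and its palindrome starts 166 bases before the start site. That of Slc25a25 is chr2:32424183-32424242, minus strand, with the palindrome 150 bases before the start. That of Mdh2 is chr5:135778496-135778555, plus strand, 127 bases before the start. That of Abcg2 is chr6:58640483-58640542, plus strand, 37 bases before the start. Slc25a25, a mitochondrial carrier of ATP-Mg and phosphate, read 768, 730.2, 565 and 533 CPM in the Dicretin livers and 261, 191, 240.2 and 67.2 CPM in the calorie-restricted livers. Abcg2, an efflux pump of the canalicular membrane, read 27, 22.6, 37.9 and 27.8 CPM in the Dicretin livers and 96.6, 141, 125 and 90.7 CPM in the calorie-restricted livers, so a palindrome near the start was found in genes of either direction.

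Gluconeogenic genes had called members in both directions: 9 of 29 tested genes were higher and 6 lower. These shares were 31% and 20.7%, beside 15.1% and 16.2% of all genes. Higher members included the enzymes that turn oxaloacetate into phosphoenolpyruvate and supply oxaloacetate. Pck1, the cytosolic phosphoenolpyruvate carboxykinase, read 5717, 6337, 6005 and 6063 CPM in the Dicretin livers and 1798, 2356, 1869.5 and 2118 CPM in the calorie-restricted livers. The groups did not overlap (log2 1.57 ± 0.22, adjusted p = 3.32e-05), and restricted livers were at the saline level of 2027 ± 615 CPM. Its mitochondrial counterpart Pck2 was at 14.3 ± 4.6 against 3.67 ± 0.81 CPM. Got1, the cytosolic aspartate aminotransferase, read 1909, 2246, 2582 and 2318 CPM in the Dicretin livers and 253, 256, 149 and 379 CPM in the calorie-restricted livers (log2 3.13 ± 0.28). Mdh2, the mitochondrial malate dehydrogenase whose promoter is printed above, rose to 469 ± 34.6 from 220.5 ± 18.5 CPM. G6pc, the catalytic subunit of glucose-6-phosphatase and the last step of glucose release, was not called. It read 1202, 794, 683 and 703 CPM in the Dicretin livers and 709, 545, 571 and 347 CPM in the calorie-restricted livers, and the 95% interval of its log2 fold change ran from 0.08 to 1.19 (adjusted p = 0.0741). Without restricted liver 7 it was called (log2 0.80, adjusted p = 0.0483). Slc2a2, the main glucose transporter of the hepatocyte surface, was lower, at 83.1, 53.3, 24.4 and 41.6 CPM in the Dicretin livers and 397, 395, 356 and 265 CPM in the calorie-restricted livers. The highest Dicretin liver stayed far below the lowest restricted liver (log2 -2.80 ± 0.26).

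Genes of glycolysis changed in both directions. Pklr, the liver pyruvate kinase, averaged 74.2 ± 86.4 against 234 ± 128 CPM (log2 -1.66 ± 0.60, adjusted p = 0.047). It lost its call without Dicretin liver 23, 64 or 65 or restricted liver 7, 8 or 52, at log2 -1.77 to -1.29, and stood at -2.91 without liver 14. Mlxipl, which encodes the glucose-sensing factor ChREBP, averaged 74.2 ± 7.8 against 149.9 ± 48.8 CPM. Other glycolytic members went the opposite way, and the list as a whole had 9 higher and 11 lower of 43. These shares were 20.9% and 25.6%, beside 15.1% and 16.2% of all genes. Aldoa, the aldolase typical of muscle, read 287, 216, 276 and 364 CPM in the Dicretin livers and 83.8, 78.6, 68 and 94.2 CPM in the calorie-restricted livers. Pfkp, the platelet phosphofructokinase, rose from 1.62 ± 0.53 to 11.5 ± 3.1 CPM, and Pgam1 was higher by 0.74 on the log2 scale. Pdk1, a kinase that inhibits pyruvate dehydrogenase, was lower at -1.27.

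Glycogen genes held the largest differences among the scaffold proteins that direct phosphatase 1 to glycogen. Of 25 tested, 4 were higher and 9 lower (median -0.36). Ppp1r3b, the main hepatic scaffold, read 90.4, 65.9, 53.4 and 44.6 CPM in the Dicretin livers and 543, 461, 498 and 432 CPM in the calorie-restricted livers (log2 -2.93 ± 0.25). Here the restricted livers stood above saline, which averaged 211 ± 23.7 CPM, and Dicretin stood below it. Ppp1r3c showed 22.9 ± 6 against 142 ± 65.4 CPM, with saline at 24.4. Ppp1r3g went the other way, at 14.9 ± 6.3 against 0.33 ± 0.38 CPM, and saline at 2.73. Without restricted liver 79 its log2 fold change was 6.29 in place of 5.46. Phka2, the liver regulatory subunit of phosphorylase kinase, was lower (log2 -0.79). Without liver 64 or 65 or restricted liver 8 the higher members fell to 2.

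**Figure D2:**
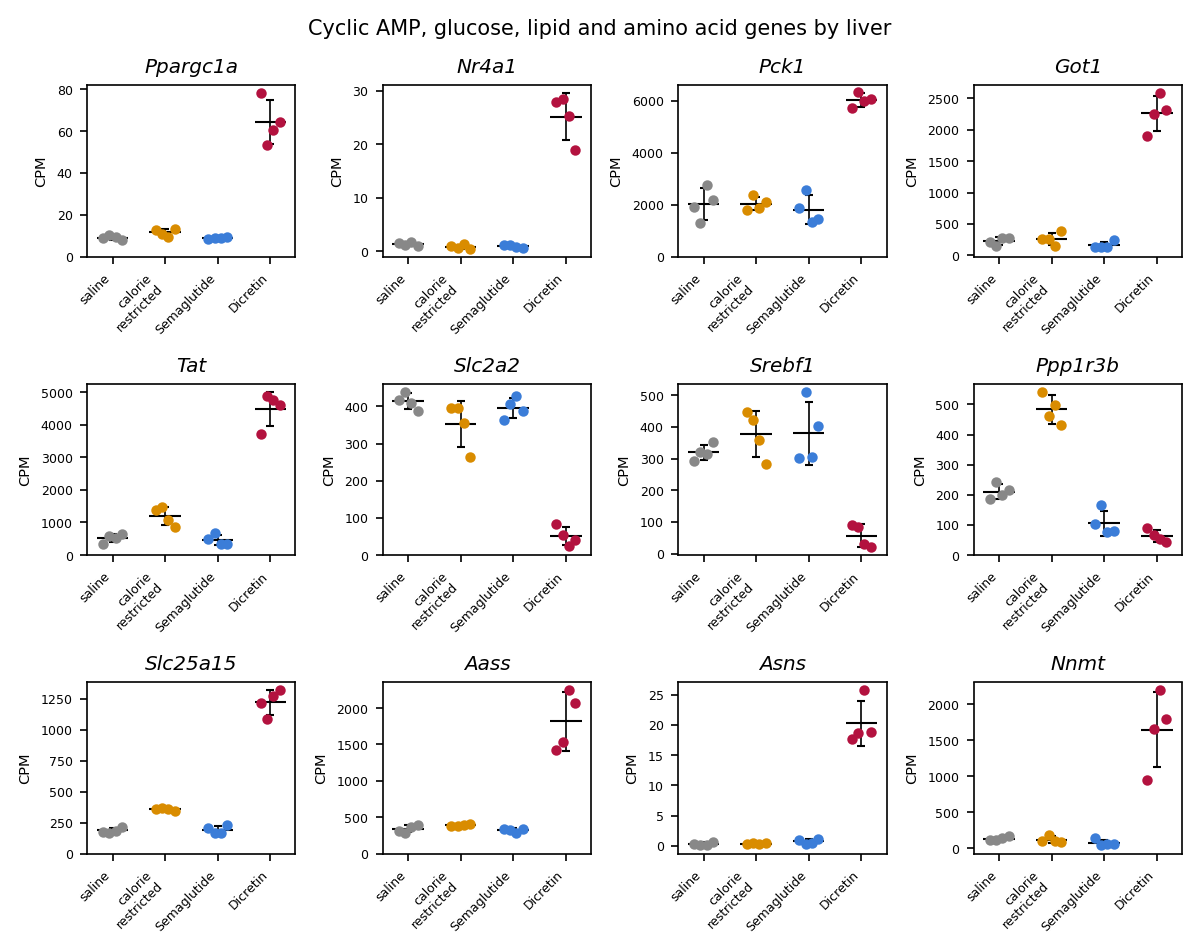
CPM per liver for 12 genes in the 4 groups; points are livers, horizontal lines the mean and vertical bars the SD (n = 4), on linear axes. In all 12 panels the Dicretin livers do not overlap the calorie-restricted livers, above them for 9 genes and below them for Slc2a2, Srebf1 and Ppp1r3b. The panels were picked from the genes named in the text, so this is no measure of all genes. Over all tested genes the groups did not overlap for 13.2% that were higher and 15.2% that were lower.

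Most genes of nitrogen disposal were higher. Of 11 tested genes of the urea cycle and its carriers, 7 were higher and 2 lower (median 0.71). Slc25a15, the carrier that moves ornithine into mitochondria, read 1216, 1087, 1269 and 1321 CPM in the Dicretin livers and 363, 369, 358 and 345 CPM in the calorie-restricted livers (log2 1.77 ± 0.14, adjusted p = 5.32e-08). Arg1, the arginase that releases urea, read 2326, 2998, 4483 and 5379 CPM in the Dicretin livers and 1086, 1397, 1131 and 1214 CPM in the calorie-restricted livers. Ass1 and Asl, which build and split argininosuccinate, averaged 9638 ± 2818 against 3922 ± 205 CPM and 1408 ± 599 against 664 ± 106 CPM. Cps1, the entry step, was at 5858 ± 595 with Dicretin, 3592 ± 517 under restriction and 2003 ± 379 CPM in saline. Restriction alone thus lay between the other groups for Cps1 (0.71 ± 0.17 on the log2 scale for Dicretin over restriction). Gls2, the liver glutaminase that feeds ammonia to the cycle, averaged 1121 ± 410.1 against 375 ± 21.5 CPM. Car5a, a mitochondrial carbonic anhydrase that supplies bicarbonate, was lower at 25.4 ± 9.7 against 52.7 ± 1.4 CPM.

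Amino acid breakdown had 18 of 65 genes higher and 11 lower (27.7% and 16.9%). Over all genes the shares were 15.1% and 16.2%, so the lower share was near that of all genes. Aass, the first enzyme of lysine breakdown, read 1418, 1529.6, 2253 and 2065 CPM in the Dicretin livers and 379.6, 377, 386 and 399.9 CPM in the calorie-restricted livers (log2 2.24 ± 0.16). Agxt, which transaminates alanine and serine with glyoxylate, read 1237, 2343, 1367 and 2253 CPM in the Dicretin livers and 208, 224, 170.2 and 281 CPM in the calorie-restricted livers. Sds, serine dehydratase, read 270.4, 435, 840.1 and 681 CPM in the Dicretin livers and 122, 106, 83.6 and 114 CPM in the calorie-restricted livers (log2 2.39 ± 0.29). Etnppl, a phosphoethanolamine phospho-lyase, averaged 1496 ± 404 against 227 ± 57 CPM. Tat, the first enzyme of tyrosine breakdown, averaged 4488 ± 529.7 against 1192 ± 282 CPM. For Tat the restricted livers were above saline (528 CPM), and Dicretin was higher still. Shmt2, the mitochondrial serine hydroxymethyltransferase, was lower (104 ± 11 against 233 ± 25.2 CPM). Among 25 amino acid transporters 9 were higher and 2 lower, and 1 lower without liver 64 or 65 or restricted liver 7 or 52. Slc7a2, a carrier of cationic amino acids, read 1408, 1763, 1649.7 and 1428 CPM in the Dicretin livers and 341, 361, 269.8 and 367 CPM in the calorie-restricted livers. Slc38a2, which takes up small neutral amino acids, rose to 306 ± 92.9 from 87.9 ± 9.8 CPM, and Slc16a10, a carrier of aromatic amino acids, to 279 ± 82.1 from 110.4 ± 6.6. Slc36a1, a lysosomal proton-coupled exporter, was lower (log2 -2.01).

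Methyl group genes were mixed as a list (8 higher and 7 lower of 23). Nnmt, which consumes S-adenosylmethionine to methylate nicotinamide, read 942, 1663, 2195 and 1798 CPM in the Dicretin livers and 98.5, 188, 107 and 93.5 CPM in the calorie-restricted livers. The lowest Dicretin liver was far above the highest restricted liver (log2 3.76 ± 0.34, adjusted p = 2.34e-07). Mat1a, which makes S-adenosylmethionine in liver, rose to 10261 ± 3249 from 3779 ± 517 CPM. Cth, the last step from homocysteine to cysteine, rose to 1571 ± 394 from 456 ± 38.8 CPM. Gamt, which methylates guanidinoacetate to creatine, was lower at 98.8 ± 35.9 against 214 ± 52.8 CPM.

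The integrated stress response is the program that ATF4 runs when amino acids are short or the endoplasmic reticulum is stressed. Of 30 tested targets 22 were higher and 0 lower (median 1.07). Asns, asparagine synthetase, read 17.7, 18.6, 25.7 and 18.9 CPM in the Dicretin livers and 0.234, 0.458, 0.314 and 0.468 CPM in the calorie-restricted livers. Restricted, saline and Semaglutide livers were all near 0 for this gene (log2 5.78 ± 0.40, adjusted p = 1.48e-08). Psat1, of serine synthesis, and Mthfd2, of mitochondrial folate metabolism, rose to 6.97 ± 6 from 0.587 ± 0.29 and to 5.45 ± 2.5 from 0.88 ± 0.54 CPM. Slc3a2, the shared heavy chain of amino acid exchangers, read 198, 125, 174 and 154 CPM in the Dicretin livers and 40.4, 35.1, 42.7 and 37.7 CPM in the calorie-restricted livers. Atf5 and Nupr1, transcriptional regulators of the response, rose to 787 ± 76 from 292 ± 122 and to 18.4 ± 13.8 from 1.12 ± 0.3 CPM. Without liver 14 the log2 fold change of Psat1 was 2.77 in place of 3.55, and without liver 64 that of Nupr1 was 3.40 in place of 4.03. Fgf21, a hormone of fasting and protein shortage, read 5.14, 21.1, 33.1 and 31.3 CPM in the Dicretin livers and 1.81, 1.53, 1.26 and 5.95 CPM in the calorie-restricted livers. Gdf15, a hormone that lowers appetite, read 9.27, 15, 18.7 and 25.3 CPM in the Dicretin livers and 2.28, 1.83, 2.2 and 7.68 CPM in the calorie-restricted livers. Restricted liver 79 was the highest of its group for both, and without it the log2 fold changes of 3.11 and 2.28 were 3.88 and 3.0. Chaperones of the endoplasmic reticulum had both directions: 5 of 34 were higher and 8 lower (14.7% and 23.5%, beside 15.1% and 16.2% of all genes). Their median against saline was 0.66 in restricted and 0.58 in Dicretin livers. Pdia4, a disulfide isomerase, read 95.5, 106, 79.7 and 158 CPM in the Dicretin livers and 203, 218, 319 and 232 CPM in the calorie-restricted livers, and saline livers averaged 137 CPM. The lower count of this list was 3 without liver 64 or restricted liver 7 or 79 and 5 without liver 65 or restricted liver 8 or 52, and the higher count was 3 without restricted liver 7 or 79.

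**Figure D3:**
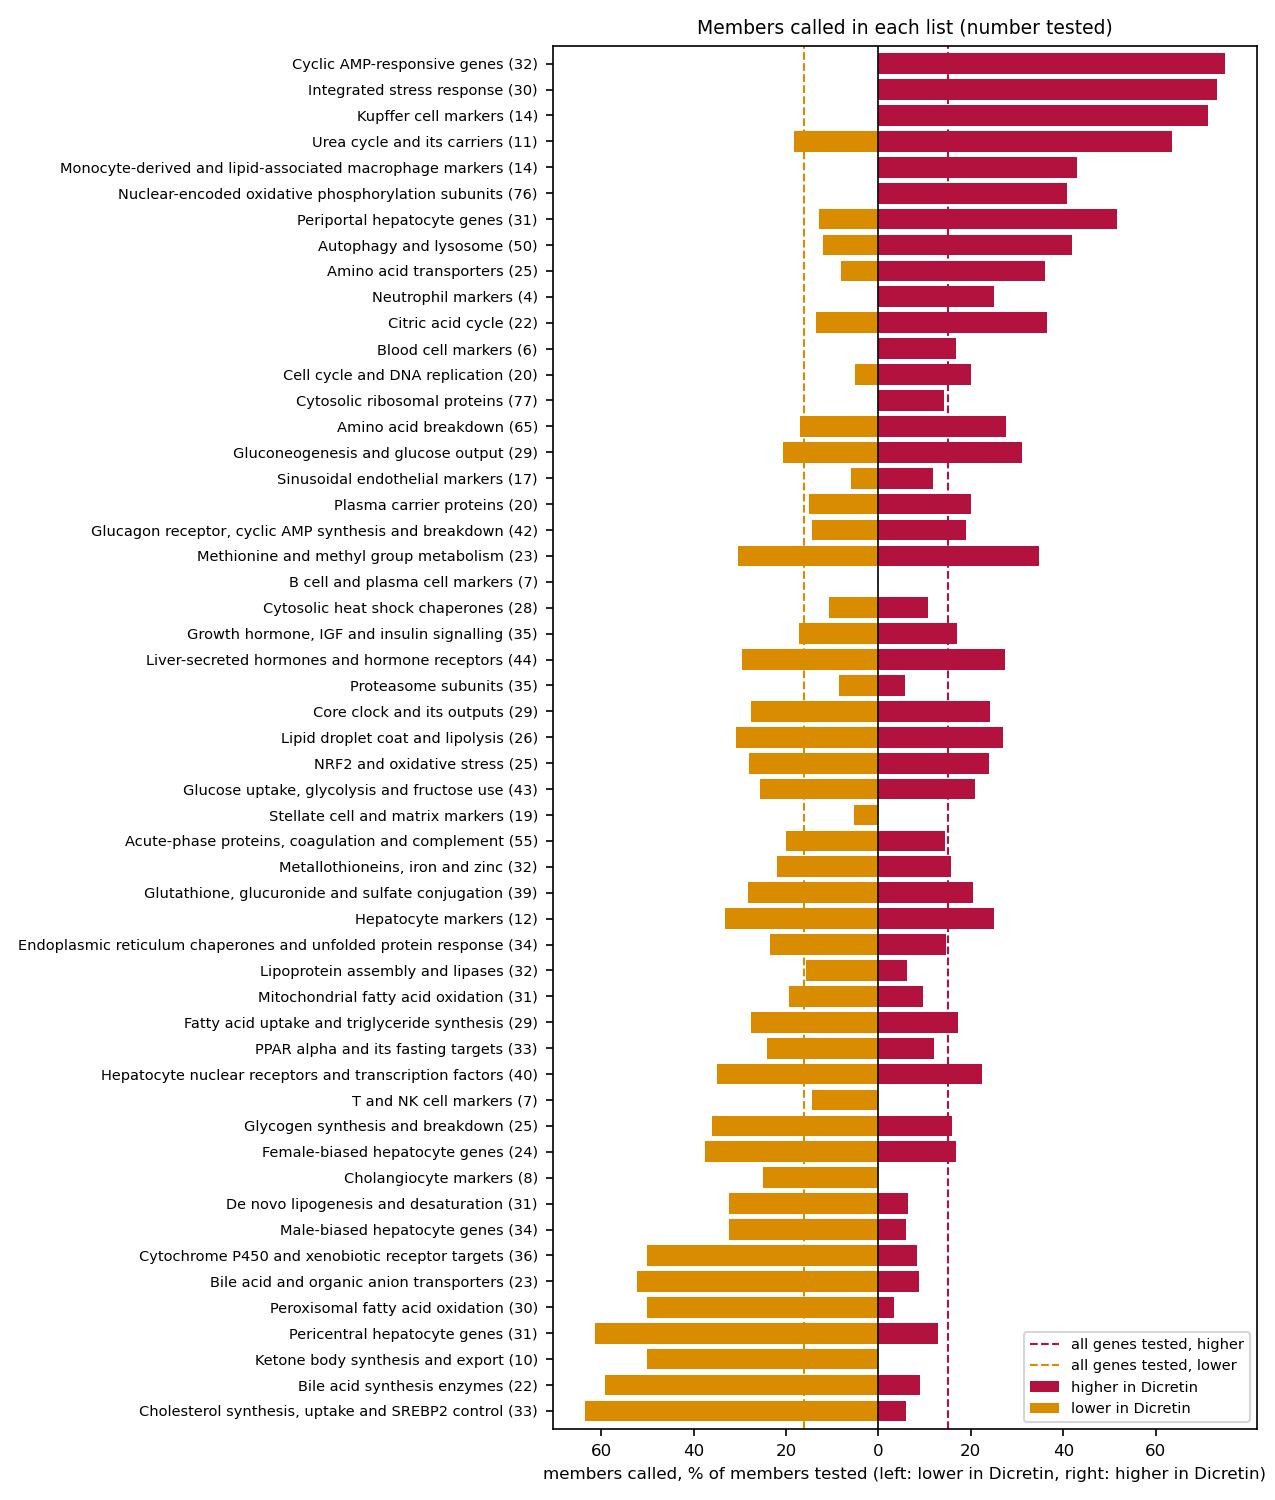
Bars give the percent of the tested members of each list that were called higher (right) or lower (left) in Dicretin, with the number tested in brackets; dashed lines are the shares over all 12910 genes, 15.1% and 16.2%. Cyclic AMP-responsive and integrated stress response genes stand at the top and cholesterol and bile acid genes at the bottom.

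Called genes of fat synthesis were more often lower than higher. Of 31 tested lipogenic genes 2 were higher and 10 lower (median -0.47). Srebf1, which encodes the insulin-driven SREBP1c, read 91.8, 83.8, 29.2 and 21.1 CPM in the Dicretin livers and 448, 422, 360.2 and 284 CPM in the calorie-restricted livers (log2 -2.74 ± 0.36, adjusted p = 1.69e-05). Thrsp, a lipogenic cofactor, read 48.1, 75.4, 18.9 and 21 CPM in the Dicretin livers and 998, 1040.3, 259 and 91.5 CPM in the calorie-restricted livers. Acss2 and Aacs, which activate acetate and acetoacetate for synthesis, averaged 33.5 ± 12.9 against 121 ± 42.9 and 6.9 ± 3.6 against 62.7 ± 50.5 CPM. Fasn, the fatty acid synthase, was not called. It read 523, 41.6, 21.9 and 14.7 CPM in the Dicretin livers and 730.2, 619, 169.6 and 264 CPM in the calorie-restricted livers, so that liver 14 lay within the range of the restricted livers, and the interval of its log2 fold change was -3.69 to 0.55. Scd1, the main desaturase, was not called either (2373 ± 3537 against 4407 ± 2734 CPM, interval -2.93 to 1.15). Without liver 14 both were called, Fasn at log2 -4.09 (adjusted p = 0.000704) and Scd1 at -2.82 (adjusted p = 0.0197), and without restricted liver 7 Aacs stood at -2.48 in place of -3.16.

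Triglyceride and lipid droplet genes had called members in both directions. Of 29 genes of uptake and triglyceride synthesis 5 were higher and 8 lower (17.2% and 27.6%). Over all genes the shares were 15.1% and 16.2%, so the higher share was near that of all genes. Acsl4, which activates long polyunsaturated fatty acids, read 355, 309.8, 263 and 341 CPM in the Dicretin livers and 69, 48.8, 45.9 and 53.2 CPM in the calorie-restricted livers. Gpat4, a glycerol-3-phosphate acyltransferase of the endoplasmic reticulum, read 645, 1002, 979.6 and 824 CPM in the Dicretin livers and 207, 161, 216 and 187 CPM in the calorie-restricted livers. Gpam, its mitochondrial counterpart, was lower at 23.1 ± 3 against 83.8 ± 24.6 CPM. Pparg, the nuclear receptor that drives fat storage, averaged 2.34 ± 0.2 with Dicretin, 13 ± 3.4 under restriction and 33.7 ± 7.7 CPM in saline. Of 26 lipid droplet genes 7 were higher and 8 lower (26.9% and 30.8%). Pnpla2, the triglyceride lipase ATGL, read 97.3, 104, 119 and 125 CPM in the Dicretin livers and 36.3, 36.1, 34.2 and 56.5 CPM in the calorie-restricted livers. Saline livers averaged 92.2 ± 9.1 CPM, nearer to Dicretin than to restriction. Cidec, a droplet fusion protein that marks steatotic liver, averaged 8.42 ± 6.6 with Dicretin, 1.76 ± 1 under restriction and 49.1 ± 21.3 CPM in saline. Without liver 65 its log2 fold change was 1.53 in place of 2.20. Plin2, the common droplet coat, was not called (356 ± 133 against 438 ± 113 CPM, interval -0.84 to 0.24). Ces1d and Ces1g, carboxylesterases of triglyceride turnover, were lower, with log2 fold changes of -3.18 and -4.48. Without liver 14 the value for Ces1g was -5.28. The Ces1 genes lie side by side with similar sequence, so reads may be split among them.

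Of 31 tested genes of mitochondrial fatty acid oxidation 3 were higher and 6 lower (9.68% and 19.4%), with a median of -0.01. The higher count was 5 without liver 14 and 1 without liver 64 or 65 or restricted liver 7 or 8, and 6 with the trend over gene length removed. Cpt1a, the gate of mitochondrial oxidation, was not called (409 ± 34.2 against 381 ± 55.4 CPM, interval -0.29 to 0.49). Slc22a5, the carnitine importer, was the largest increase of that list, at 63.7, 71.2, 122 and 126 CPM in the Dicretin livers and 24.1, 30, 31.4 and 33.7 CPM in the calorie-restricted livers. In peroxisomes 15 of 30 members were lower and 1 higher (median -0.46), and 11 and 3 without liver 14. Cat, the peroxisomal catalase, read 1377, 1642, 1238 and 1275 CPM in the Dicretin livers and 2897, 3525, 3174 and 3467 CPM in the calorie-restricted livers. Crot, a carnitine octanoyltransferase, was lower (log2 -1.59). Ketone body genes had 5 lower and 0 higher of 10. Of 33 targets of PPAR alpha, the fasting receptor for fatty acids, 4 were higher and 8 lower (12.1% and 24.2%).

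Sterol synthesis was the list with the largest share of lower members: 21 of 33 lower and 2 higher (median -1.09). The higher count was 0 without liver 65 or restricted liver 8 and 1 without liver 14 or 64 or restricted liver 7 or 52. Against saline the median was -0.70 with Dicretin and 0.46 under restriction, so the groups lay on opposite sides of saline. Hmgcs1, an early enzyme of sterol synthesis, read 46.9, 45.2, 30.8 and 29.4 CPM in the Dicretin livers and 207, 218, 193 and 784 CPM in the calorie-restricted livers (log2 -3.20 ± 0.40). Restricted liver 79 was the highest, and without it the value was -2.44. Srebf2, the master factor of sterol genes, averaged 18.9 ± 3.9 against 49.4 ± 15.8 CPM. Insig1, which retains that factor in the endoplasmic reticulum and is also its target, averaged 78.7 ± 19.3 against 374 ± 108 CPM, with saline at 149 ± 3.4 CPM.

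Most called genes of bile acid synthesis and transport were lower. Of 22 tested enzymes 13 were lower and 2 higher, and 1 was higher without liver 14, 23 or 64 or restricted liver 7, 8 or 52. Cyp7a1, the hydroxylase that commits cholesterol to bile acids, read 1.34, 4.95, 0.407 and 11.3 CPM in the Dicretin livers and 186, 363, 278 and 84 CPM in the calorie-restricted livers (log2 -5.72 ± 0.76, adjusted p = 4.84e-05). Liver 65 was the highest of its group, and leaving it out gave -6.67. Cyp8b1, which sets the share of cholic acid, read 16.3, 31.3, 32.7 and 71.7 CPM in the Dicretin livers and 140.2, 339, 259.9 and 505 CPM in the calorie-restricted livers. Semaglutide livers averaged 39.7 ± 18.1 CPM for Cyp8b1 and 52.2 ± 29.6 CPM for Cyp7a1. Hsd3b7, a shared early step, averaged 118 ± 41 against 351 ± 108 CPM. Cyp39a1, an oxysterol hydroxylase, was higher, at 204, 192, 164 and 181 CPM in the Dicretin livers and 59.5, 32.5, 40.7 and 48.8 CPM in the calorie-restricted livers. Of 23 transporters 12 were lower and 2 higher. Slco1a1, an organic anion importer of the basolateral membrane, read 7.77, 2.6, 3.32 and 4.33 CPM in the Dicretin livers and 394, 247, 198 and 216 CPM in the calorie-restricted livers. Abcc3, a basolateral exporter, averaged 50.3 ± 6.7 against 179 ± 30.2 CPM, and Slc22a7, an organic anion transporter, 1.93 ± 1.5 against 47.6 ± 15.6. Abcg5, a partner in sterol export to bile, was higher at 161 ± 36.2 against 65 ± 8.5 CPM. Lipoprotein genes had 2 higher and 5 lower of 32 (6.25% and 15.6%). The higher count was 5 without liver 14 and 1 without liver 64 or 65 or restricted liver 8 or 52, and the lower count was 2 without liver 64 and 3 without restricted liver 7 or 79. The largest increase was Apoa4, an apolipoprotein raised in fatty liver, at 1802, 3252, 1158 and 2954 CPM in the Dicretin livers and 197, 276, 249 and 178 CPM in the calorie-restricted livers, with saline at 967 CPM.

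Called xenobiotic cytochromes were mostly lower. Of 36 tested members 18 were lower and 3 higher. Cyp2c50 read 31.3, 27.4, 7.05 and 38.5 CPM in the Dicretin livers and 827, 1061, 1012 and 991 CPM in the calorie-restricted livers, Cyp1a2 averaged 59.7 ± 20.6 against 451 ± 102 CPM, and Cyp2e1, an ethanol-metabolising enzyme among the most abundant in liver, averaged 3423 ± 1691 against 11785 ± 1853 CPM. Reads of the Cyp2c genes, which are close copies, may be split among them. Nr1i3, the receptor CAR that induces many of these enzymes, read 2.62, 4.5, 12.1 and 17.2 CPM in the Dicretin livers and 43.8, 84.3, 68.9 and 58.1 CPM in the calorie-restricted livers, and Ahr, the dioxin receptor that induces Cyp1a2, averaged 12.3 ± 1.1 against 49.7 ± 11 CPM. Members in the opposite direction were Cyp17a1, a steroid hydroxylase, at 327, 641, 367 and 761 CPM in the Dicretin livers and 22, 33.4, 16.9 and 19.7 CPM in the calorie-restricted livers, and Cyp2a4, a steroid hydroxylase with a nearly identical neighbour, at 255 ± 228 against 1.67 ± 1.2 CPM. The log2 fold change of Cyp2a4, 7.22 ± 0.81, was 6.42 without liver 64 and 7.87 without restricted liver 52. Por, the reductase that feeds electrons to all microsomal cytochromes, was higher at 747 ± 157 against 326 ± 46.8 CPM. Among conjugating enzymes (8 higher and 11 lower of 39), Gstp1 rose to 2677 ± 1052 from 409 ± 80.5 CPM and Ugt1a1, which conjugates bilirubin, was lower at 43.3 ± 16.1 against 120.2 ± 27.1. Gstp1 and its neighbour Gstp2 are near copies, so their split is uncertain.

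Hepatocytes differ along the lobule, those by the portal vein making glucose and urea and those by the central vein holding glutamine synthesis and most cytochromes. The lists of these zones differed in the direction of most called members: 16 of 31 periportal genes were higher and 4 lower (median 0.64), and 19 of 31 pericentral genes were lower and 4 higher (median -1.04). Many of them are the urea, amino acid and cytochrome genes above, so the lists share members. Glul, the glutamine synthetase of the innermost pericentral cells, read 292, 463, 250.1 and 361 CPM in the Dicretin livers and 1073, 1513, 1345 and 1022 CPM in the calorie-restricted livers (log2 -1.86 ± 0.21). Alb, classed as periportal, was lower, at 59616 ± 10124 against 108489 ± 10791 CPM, and took 4.56 to 7.02% of a Dicretin library and 9.25 to 12.1% of a restricted one.

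Sex-biased liver genes are set by the rhythm of growth hormone. Of 34 male-biased genes 11 were lower and 2 higher, and of 24 female-biased genes 9 were lower and 4 higher. Hsd3b5, a male-specific steroid enzyme (chromosome 3, 98618634 to 98630252), read 0.107, 0.317, 0.474 and 0.26 CPM in the Dicretin livers and 112, 85.3, 8.64 and 26.7 CPM in the calorie-restricted livers, the most negative fitted value of all tested genes. Saline livers averaged 3.07 ± 3.4 and Semaglutide livers 206 ± 36.8 CPM. Cyp4a12a, a male-specific fatty acid hydroxylase, averaged 0.761 ± 0.98 against 45.2 ± 27.1 CPM. Its log2 fold change of -5.85 ± 0.65 was -7.34 without liver 23. Mup20, a pheromone-binding urinary protein of males, was higher at 6241 ± 1247 against 2098 ± 765 CPM, and Mup genes are near copies. Of 35 genes of growth hormone, IGF and insulin signalling 6 were higher and 6 lower (17.1% each), shares near those of all genes. Ghr, the growth hormone receptor, read 285, 458, 334 and 373 CPM in the Dicretin livers and 663, 746, 696 and 628 CPM in the calorie-restricted livers. Stat5b, its transcription factor, averaged 21.2 ± 4 against 49.4 ± 12 CPM, and Socs3, a feedback inhibitor, was higher at 21.6 ± 3 against 5.7 ± 2.1. Igfbp1, a secreted IGF binder raised by glucagon and suppressed by insulin, read 462, 481, 657 and 1021 CPM in the Dicretin livers and 21.8, 25.1, 26.5 and 57 CPM in the calorie-restricted livers (log2 4.33 ± 0.37, adjusted p = 1.05e-07). Igfbp2 was not called (625 ± 174 against 485 ± 137 CPM, interval -0.28 to 1.01).

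Several hormones, receptors and secreted factors were low or undetected without Dicretin. The list of hormones and hormone receptors had 12 higher and 13 lower of 44 (27.3% and 29.5%, beside 15.1% and 16.2% of all genes). Its median log2 fold change was 0.09, and its members ran from -2.66 to 11.07. No gene named in this paragraph was called lower, so the genes named do not represent the list. Wnt10a, a Wnt ligand (chromosome 1, 74791516 to 74804179), read 18.9, 16.1, 18.6 and 16.2 CPM in the Dicretin livers and had 0 counts in the restricted livers. Against a floor of 3 counts over that group it was at least 374-fold higher. Ren1, renin (chromosome 1, 133350510 to 133360325), read 18.7, 20.1, 8.2 and 11.1 CPM and also had 0 counts under restriction, which makes it at least 311-fold higher. Pappa2, a protease of IGF binding proteins (chromosome 1, 158711727 to 158980490), averaged 6.05 ± 5.3 CPM and was at least 129.7-fold higher by the same floor. Stk33, a kinase (chromosome 7, 109279223 to 109439081), averaged 3.67 ± 2.3 CPM and was at least 78.7-fold higher. Tg, thyroglobulin (chromosome 15, 66670753 to 66850721), averaged 8.69 ± 4.3 against 0.0146 ± 0.029 CPM. It had 1 count under restriction, in liver 7, and the ratio of the summed levels was 521 with an exact 95% interval of counting error of 93.1 to 20633. Lepr, the leptin receptor, read 278, 327, 290.3 and 258 CPM in the Dicretin livers and 3.21, 2.21, 1.78 and 3.87 CPM in the calorie-restricted livers, and Semaglutide livers averaged 12.9 ± 7.1 CPM. Fst, which binds activins, averaged 69.5 ± 31.5 against 2.26 ± 0.73 CPM. Hamp, the iron hormone hepcidin, was not called: it read 186, 2554, 4243 and 3971 CPM in the Dicretin livers and 971, 1259, 897 and 1226 CPM in the calorie-restricted livers, and its interval was 0.06 to 2.60. Liver 14 was the lowest, and without it Hamp was called higher (log2 1.72, adjusted p = 0.000424).

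The other members of the 15 largest increases were of mixed kinds. Tuba8, a tubulin, read 78.1, 102, 90.4 and 85.4 CPM in the Dicretin livers and 0.409, 0.687, 0.68 and 0.0668 CPM in the calorie-restricted livers. Akr1b7, an aldo-keto reductase of the steroidogenic adrenal, averaged 35.2 ± 32.6 against 0.0961 ± 0.11 CPM, Pcdh20, a protocadherin, 8.76 ± 4.5 against 0.0523 ± 0.1, Tmprss7, a transmembrane protease, 4.06 ± 1.8 against 0.0298 ± 0.035, and Tnfaip6, a hyaluronan-binding protein, 4.43 ± 0.38 against 0.0393 ± 0.079. For Akr1b7 the log2 fold change of 8.25 was 7.48 without liver 14 and 8.90 without restricted liver 52. That restricted liver held the only restricted counts of Pcdh20 and Tnfaip6, and without it they were at least 132-fold and 66.7-fold higher by the floor of 3 counts. Among the 15 largest decreases, Clec2h, a lectin, averaged 0.0134 ± 0.027 against 2.75 ± 1.8 CPM. Its 1 Dicretin count was in liver 14, and without that liver it was at least 38.7-fold lower. Col27a1, a fibrillar collagen, read 2.79, 1.14, 0.813 and 0.866 CPM in the Dicretin livers and 88.6, 131, 48.4 and 41.2 CPM in the calorie-restricted livers. Depp1, a gene under FOXO control that is raised in fasting, read 0.375, 1.58, 1.22 and 1.13 CPM in the Dicretin livers and 21.8, 23.1, 16.6 and 144 CPM in the calorie-restricted livers. Ihh, Indian hedgehog, averaged 0.0508 ± 0.1 against 2.44 ± 1.4 CPM. Its 3 Dicretin counts were in liver 64, and without that liver it was at least 37.4-fold lower. Sema5b averaged 0.149 ± 0.16 against 5.01 ± 3 CPM, Nat8 1.39 ± 0.37 against 34.7 ± 12.4, and Slc17a8 1.54 ± 0.97 against 39 ± 12.5. Cyp2c54 averaged 5.28 ± 4.3 against 405 ± 48.5 CPM. With single livers left out the log2 fold change was -6.33 for Col27a1 and -5.98 for Sema5b without liver 14, -6.91 for Cyp2c54 without liver 65 and -4.27 for Depp1 without restricted liver 79, in place of -5.72, -4.88, -6.29 and -5.60.

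For some genes the calorie-restricted livers had left the saline level, so that part of the distance between the groups lies on that side. Mt2 and Mt1, metallothioneins that bind zinc, averaged 397 ± 39.5 and 619 ± 125 CPM with Dicretin, 1.54 ± 0.88 and 4.31 ± 1.9 under restriction and 96.3 ± 22.2 and 187 ± 30.6 in saline. Restriction against saline gave a log2 fold change of -5.96 ± 0.37 for Mt2, and Dicretin against saline 2.05 ± 0.29. Clock genes had 7 of 29 higher and 8 lower (24.1% and 27.6%, beside 15.1% and 16.2% of all genes), with a median of 0.08. Nr1d1, the repressor REV-ERB alpha, read 22.6, 27.1, 21.1 and 18.5 CPM in the Dicretin livers and 6.6, 7.33, 8.37 and 7.01 CPM in the calorie-restricted livers, with saline at 32.4 and Semaglutide at 69.7 CPM. Cry1, a clock repressor, averaged 28.7 ± 7.5 with Dicretin, 55.6 ± 11.3 under restriction and 10.6 ± 2.2 CPM in saline. Rgs16, a G protein regulator of fasting liver with a daily rhythm, averaged 0.25 ± 0.11, 6.45 ± 4.1 and 216 ± 73.9 CPM in that order. Avpr1a, the hepatic vasopressin receptor, averaged 19.1 ± 8.3, 47.3 ± 14.6 and 4.78 ± 1.3. The hour of collection and of feeding in each group is not given in the sources used here, so its part in these differences was not tested.

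**Figure D4:**
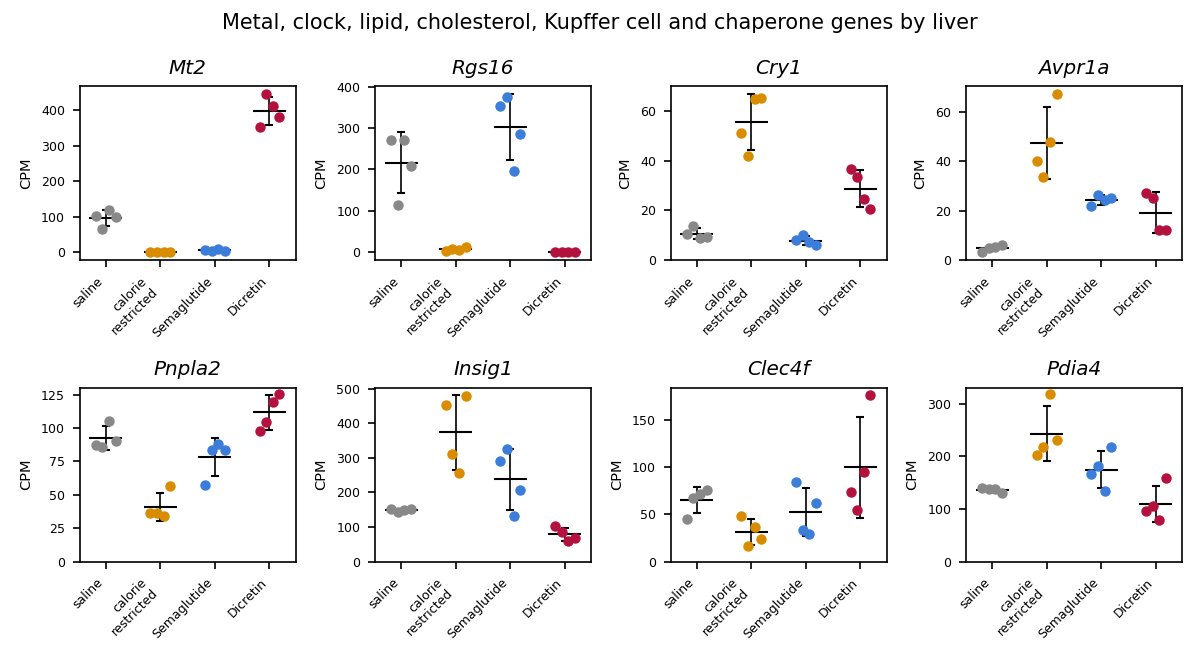
CPM per liver for 8 genes in the 4 groups; points are livers, horizontal lines the mean and vertical bars the SD (n = 4), on linear axes. Restricted livers lie below saline for Mt2, Rgs16, Pnpla2 and Clec4f by their means and above it for Cry1, Avpr1a, Insig1 and Pdia4.

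Many mitochondrial respiration genes were higher. Of 76 nuclear-encoded subunits 31 were higher and 0 lower (median 0.52). Cox5b, of complex IV, read 246, 409, 302 and 393 CPM in the Dicretin livers and 174, 239, 169 and 185 CPM in the calorie-restricted livers, and Atp5b, of the ATP synthase, averaged 1977 ± 53 against 1383 ± 96.7. Cox7a1, the contractile tissue isoform of complex IV, rose to 12.4 ± 2.3 from 1.41 ± 0.33 CPM. The count of 31 was 47 without liver 14 and 20 without liver 65 or restricted liver 52, and 41 with the trend over gene length removed. Of 77 ribosomal protein genes 11 were higher and 0 lower (14.3% and 0%, beside 15.1% and 16.2% of all genes). Their median log2 fold change was 0.38 with quartiles of 0.26 and 0.56, beside 0.0 with quartiles of -0.44 and 0.39 over all genes. The count of 11 was 27 without liver 14, 3 without liver 65 and 5 without restricted liver 7. It was 6 without liver 64 or restricted liver 52 and 18 with the length trend removed. The 37 mitochondrial genes of the table hold 0 counts in every library, so the subunits made in mitochondria are not analysed here. Citric acid cycle genes had 8 higher and 3 lower of 22. Fh1, fumarase, read 921, 1183, 1383 and 1493 CPM in the Dicretin livers and 276, 351, 229 and 252 CPM in the calorie-restricted livers (log2 2.17 ± 0.18). Idh3a, of the cycle's NAD-linked isocitrate dehydrogenase, rose to 138 ± 40.8 from 53.6 ± 11.7 CPM, and the cytosolic Idh1 was lower at 230.1 ± 34.9 against 547 ± 29.2.

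Autophagy and lysosome genes were more often higher than lower, 21 against 6 of 50 (median 0.35). Map1lc3b, the LC3B protein of the autophagosome membrane, read 168, 199, 203 and 261 CPM in the Dicretin livers and 75.4, 75.6, 89.5 and 93.1 CPM in the calorie-restricted livers. Sqstm1, the cargo receptor p62, read 575, 698, 763 and 808 CPM in the Dicretin livers and 281, 288, 316 and 381 CPM in the calorie-restricted livers. Ctsl, a lysosomal protease, averaged 1139 ± 185 against 513 ± 57.4 CPM, and Fnip1, a regulator of mTORC1 at the lysosome, 70.3 ± 11.2 against 29.1 ± 5.1. Of 55 acute-phase and complement genes 8 were higher and 11 lower (14.5% and 20%), shares near those of all genes, and without liver 14 the higher members were 13. Hp and Hpx, which bind free haemoglobin and haem, rose to 7576 ± 3237 from 2936 ± 566 and to 9553 ± 3876 from 3183 ± 217 CPM. Saa4 and the complement protease C1s1 were lower at 98.3 ± 16.4 against 333 ± 58.3 and 165 ± 34.2 against 388 ± 17 CPM.

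All 12 hepatocyte markers listed were detected. Of these 3 were higher and 4 lower (median -0.25), and 2 and 2 without liver 64. Alb, serum albumin, averaged 59616 ± 10124 against 108489 ± 10791 CPM. The summed level of the 12 was 106610 to 121457 CPM in the Dicretin and 163334 to 178429 CPM in the restricted livers, and Alb is the largest part of that sum. With the 20 most abundant genes left out, 5 of the markers remained, 3 of them higher and 1 lower. Kupffer cells are the resident macrophages of liver, and 10 of 14 of their markers were higher and 0 lower (median 1.37). Against saline this median was 0.27 with Dicretin and -1.06 under restriction. Clec4f, a lectin specific to Kupffer cells, read 74.2, 54.6, 95.5 and 177 CPM in the Dicretin livers and 48.1, 16.3, 37 and 23.7 CPM in the calorie-restricted livers, with saline at 65.3 CPM. C1qb and C1qc, complement chains made by macrophages, averaged 52.3 ± 22.2 against 19.4 ± 7.1 and 42.2 ± 16.4 against 16.3 ± 6.6 CPM. The summed level of the 14 markers was 410 to 905 CPM with Dicretin, 186.3 to 491.3 under restriction and 421.5 to 629.8 in saline, so the groups overlapped in the sum. Without liver 65, which had the highest Clec4f value, 6 of the 14 were called, and 6 also with no low-count filter. Of 14 markers of infiltrating and lipid-associated macrophages 6 were higher, and 2 without liver 65 or 3 without restricted liver 8 or 79. Stellate cell markers had 0 higher and 1 lower of 19, sinusoidal endothelial markers 2 and 1 of 17, cholangiocyte markers 0 and 2 of 8, neutrophil markers 1 and 0 of 4, T and NK cell markers 0 and 1 of 7, and B cell markers 0 and 0 of 7. Without liver 14 the lower stellate count was 4 (median -0.48 in place of -0.25), and without liver 23 the higher sinusoidal count was 4. Every other count of these 6 lists moved by at most 1 gene when single livers were left out. Cell cycle genes had 4 higher and 1 lower of 20 (median 0.78). Without liver 14 the counts were 3 and 3 and the median -0.50, and without liver 64 or 65 they were 6 and 0. Pcna, the replication clamp, rose to 73 ± 5 from 36.5 ± 0.53 CPM. Car3, listed as a marker of fat and muscle that hepatocytes also express, was lower at 824, 1794, 221 and 87.6 CPM in the Dicretin livers and 4745, 7000.2, 6198 and 6149 CPM in the calorie-restricted livers. Its log2 fold change of -3.04 ± 0.63 was -3.99 without liver 23. The muscle and pancreas markers Acta1 and Amy2a5 had 0 counts in all 8 livers.

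**Figure D5:**
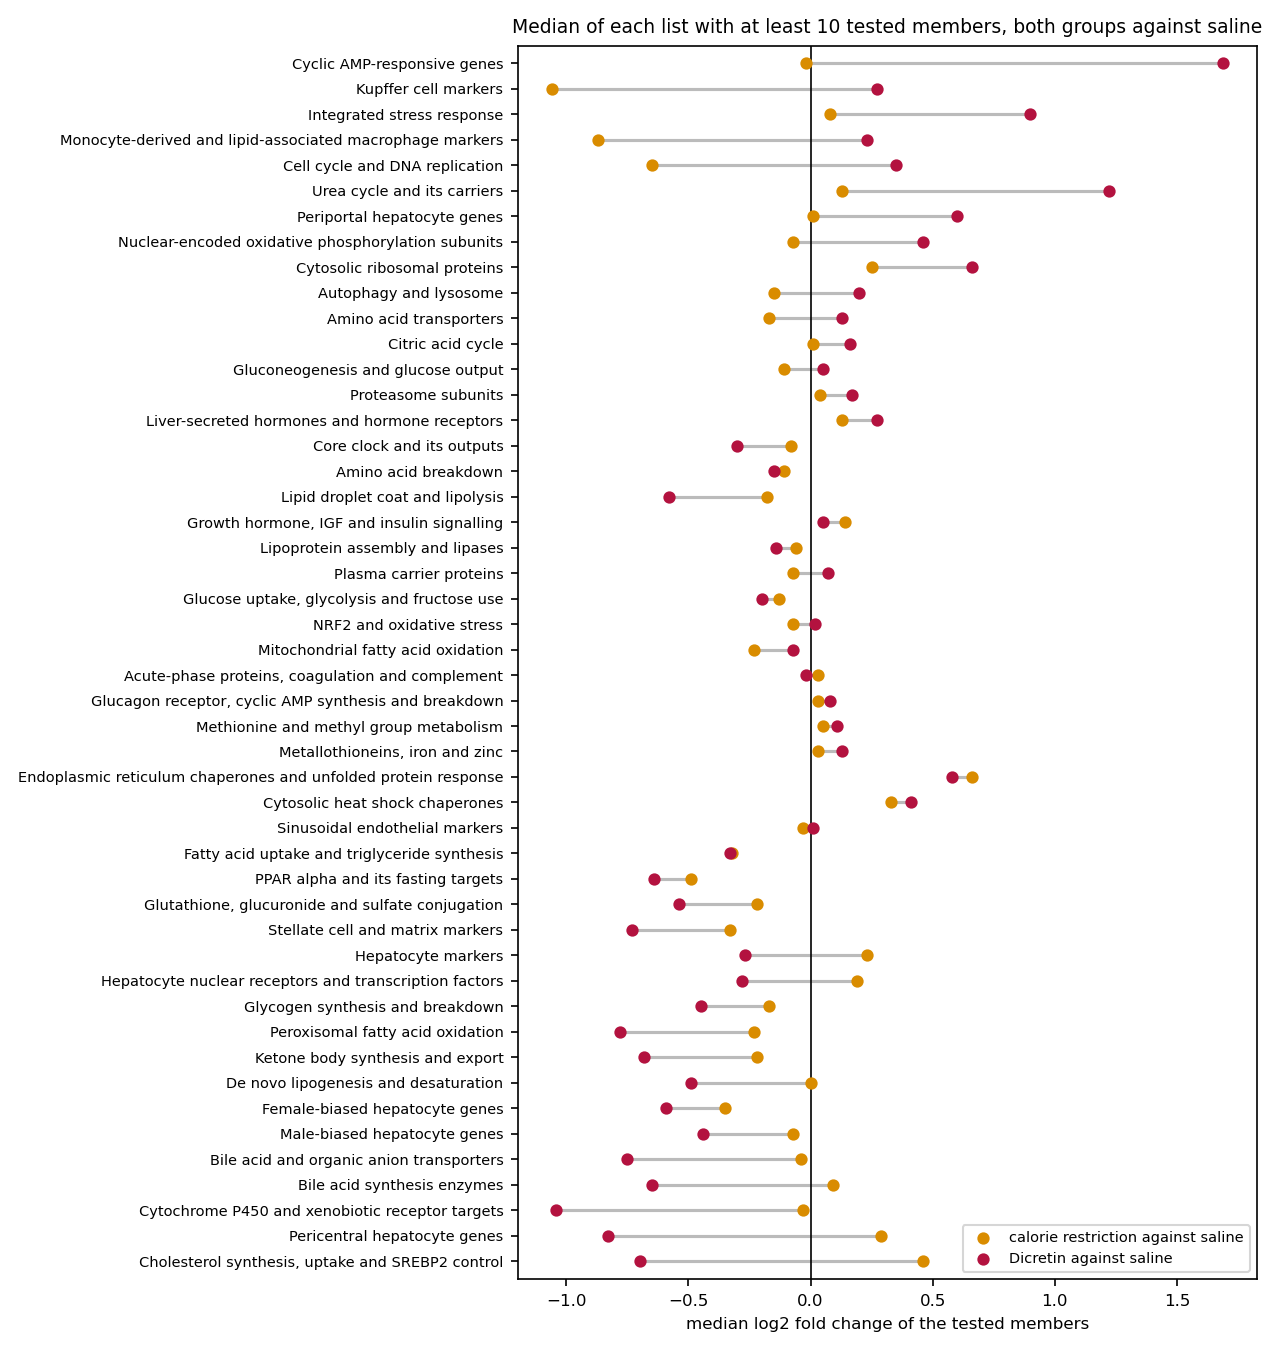
For each list with at least 10 tested members, the x axis gives the median log2 fold change of its members against saline, in calorie-restricted livers and in Dicretin livers; both comparisons share the 4 saline libraries, and lists are ordered by their median of Dicretin over calorie restriction. Sterol genes and Kupffer cell markers lie on opposite sides of saline in the 2 groups, and the median of the cyclic AMP-responsive genes is -0.02 under restriction and 1.69 with Dicretin.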

How the data were processed

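Poly(A) RNA from frozen liver was sequenced from a directional library kit, per the labels' protocols. The authors' deposited table holds raw counts of reads per Ensembl gene for 46078 genes and 16 mice, and the submitters' processing notes name TopHat2 2.1.1, featureCounts and mm10. The strand setting is not given in the sources used here. Symbols and positions came from GENCODE M21 (GRCm38) for 45229 identifiers. Genes were filtered with filterByExpr over the 4 groups, which left 12910 genes with 99.89% of counts. Totals were scaled with TMM, and edgeR 4.0.16 was fitted with a mean per group (glmQLFit, robust, then glmQLFTest). For genes with many counts, counting error at 12143829 to 18755393 counts per library is small beside the spread between livers. The biological coefficient of variation between livers was 0.24. For genes with few counts it is large, as for Tg with 1 count under restriction and a counting interval of 93.1 to 20633. The titles number separate animals, but no litter, cage or batch is named. The p-values test the group difference against a spread between livers that was estimated jointly over all 16 libraries. No pair of livers in either group agreed within sampling noise (chi-square per degree of freedom 23.79 to 134.6).

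Named genes were the 15 largest called increases and the 15 largest decreases without overlap and with at least 2 CPM in the higher group, up to 6 members with the smallest p per list, and a panel of glucagon, lipid and hormone genes. The members, lists and panel were chosen with earlier results of these data known, so no list's direction is independent evidence. Lists are described by counts and medians, with no test of the list. Cry1 and Avpr1a fall outside the rule and were chosen after their values were seen. Some named genes are not reported here. On simulated counts with 100 genes changed 2-fold and 100 changed 4-fold among 12693, 56.1% and 99% were recovered and 3.1% of calls were false. The simulation gave every gene the same coefficient of variation between livers and held no deviant liver. In these data 31.3% of genes were called. Chi-square per degree of freedom was 48.84 to 134.6 between Dicretin livers and 23.79 to 40.42 between restricted livers. The simulated rates therefore need not hold here. The alternatives were other scalings and filters, DESeq2 1.42.0, limma-voom, the 20 most abundant genes left out, the 8 libraries alone, the length trend removed by loess (span 0.5), and each liver left out in turn.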

Additional observations from a re-analysis of the deposited data

Results flagged for a closer look

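In some groups of 4 livers a single liver lay far from the other 3, its gap to the nearest, as a share of the group's range, passing Dixon's 95% critical value. For normally distributed values chance gives this in about 1 in 20 groups. It was seen 33 times in 336 groups of 4 over the genes named, 27 times as a high value. The rate of 1 in 20 need not hold for CPM, and a group with counts in a single liver passes by construction. No excess over that rate is therefore claimed. Values are CPM with the range of the other 3 in brackets. Dicretin liver 23 lay above the other 3 for Abcg5 (215 against 141 to 146), Cyp4a12a (2.22 against 0.161 to 0.406) and Gamt (153 against 77.5 to 83.7). Dicretin liver 64 lay above the other 3 for Asns (25.8 against 17.7 to 18.9) and Ces1d (331 against 159 to 171). The same liver held the only counts of its group for Ihh (0.203). Dicretin liver 14 lay above the other 3 for Col27a1 (2.79 against 0.813 to 1.14), Fasn (523 against 14.7 to 41.6), Nr4a3 (19.6 against 4.42 to 5.96), Pappa2 (13.9 against 2.6 to 4.27), Pklr (203 against 22.1 to 39.9) and Scd1 (7615 against 169 to 1391). Dicretin liver 14 lay below the other 3 for Hfe2 (20.1 against 26.9 to 27.9). The same liver held the only counts of its group for Clec2h (0.0536). Dicretin liver 65 lay below the other 3 for Slc11a2 (13 against 17.6 to 18.1). Restricted liver 7 lay below the other 3 for Ahr (33.3 against 54.4 to 56.4) and Aox1 (52 against 68.8 to 70.6). The same liver held the only counts of its group for Nr4a3 (0.409) and Tg (0.0584). Restricted liver 79 lay above the other 3 for Atf5 (475 against 221 to 241), Depp1 (144 against 16.6 to 23.1), Fgf21 (5.95 against 1.26 to 1.81), Gdf15 (7.68 against 1.83 to 2.28), Hmgcs1 (784 against 193 to 218), Igfbp1 (57 against 21.8 to 26.5), Pnpla2 (56.5 against 34.2 to 36.3) and Srebf2 (73 against 40.2 to 42.4). Restricted liver 79 lay below the other 3 for Gstp2 (0.868 against 1.91 to 2.04). Restricted liver 8 lay above the other 3 for Nnmt (188 against 93.5 to 107). Restricted liver 8 lay below the other 3 for Gpam (47.3 against 91.5 to 100). Restricted liver 52 lay above the other 3 for Pcna (37.3 against 36.2). The same liver held the only counts of its group for Pcdh20 (0.209) and Tnfaip6 (0.157).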

How the results depend on the processing

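Each result was recomputed under 17 alternatives. The counts of 1951 genes higher and 2090 lower stayed within 1.5 times under all of them. They were 1605 and 1715 with the 8 libraries alone, 1688 and 1771 with no low-count filter, 2249 and 2192 with DESeq2, and 2398 and 2027 with the length trend removed. The share of higher genes among those called was 44.9 to 54.2%, against 48.3% as reported, and no setting moved the median of all genes by more than 0.056 on the log2 scale. With single livers left out, higher genes ranged from 1543 to 2098 and lower genes from 1719 to 2336, the fewest without restricted liver 7 and the most without Dicretin liver 14. Of 170 genes named, 163 were called and 162 of them kept direction and call under every alternative that could be run for them. Most were named for a small p or a large change in this same comparison, so their stability does not speak for all calls. Of the 4041 genes called, 3236 were also called with the 8 libraries alone and 3190 without restricted liver 7. Alb, Ass1, Cyp2e1, Hpx, Mat1a and Mup20 have no value with the 20 most abundant genes left out, being among those genes. Pklr lost its call with no low-count filter, with the 8 libraries alone and with the length trend removed, and without 6 of the 8 livers in turn. 7 genes were not called. 4 of these were called under an alternative: Fasn, Scd1 and Hamp without liver 14, Fasn also with limma-voom (log2 -2.84), and G6pc with DESeq2 (log2 0.66) and without restricted liver 7. Where edgeR called 0 members of a list in a direction, DESeq2 and limma-voom did too, and at an unadjusted p under 0.05 edgeR had 0 except for 1 ketone body gene and 1 B cell marker, both higher. The cause of these changes was not tested. No paired analysis was possible because the animal numbers of the Dicretin group (14, 23, 64 and 65) and of the restricted group (7, 8, 52 and 79) share none. Depth limits genes near 0 counts, such as Wnt10a and Ren1 under restriction, to lower bounds of the fold.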

Other observations

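Several regulators and protective genes not described above also differed. Of 40 tested nuclear receptors and liver transcription factors 9 were higher and 14 lower. Esrra, a receptor that works with the Ppargc1a coactivator on mitochondrial genes, read 61.3, 73.9, 108 and 109 CPM in the Dicretin livers and 31.2, 28.7, 24.6 and 23.6 CPM in the calorie-restricted livers (log2 1.70 ± 0.20, adjusted p = 4.54e-06). Klf15, a factor of amino acid breakdown and gluconeogenesis, read 286, 295, 341 and 304 CPM in the Dicretin livers and 124, 144, 148 and 136 CPM in the calorie-restricted livers (log2 1.15 ± 0.15). Foxa3, a liver-enriched forkhead factor, averaged 105 ± 12.7 against 50.1 ± 6.8 CPM. In the list of oxidative stress genes 6 were higher and 7 lower of 25. Hmox1, the haem oxygenase, read 62, 54.3, 60.2 and 71.4 CPM in the Dicretin livers and 12.8, 8.33, 18 and 10.1 CPM in the calorie-restricted livers, and Aox1, an aldehyde oxidase, was lower at 23.2 ± 11.1 against 65.1 ± 8.8 CPM. Osgin1, an oxidative stress target, was lower at 43.4 ± 12.7 against 139 ± 45.4 CPM.

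Iron and metal genes had 5 higher and 7 lower of 32 (15.6% and 21.9%, beside 15.1% and 16.2% of all genes). Hfe2, which encodes hemojuvelin, a coreceptor in hepcidin control, read 20.1, 26.9, 27.5 and 27.9 CPM in the Dicretin livers and 79.2, 101, 85.3 and 94.7 CPM in the calorie-restricted livers (log2 -1.82 ± 0.15, adjusted p = 9.71e-08). Steap3, a ferric reductase, averaged 8.23 ± 1.2 against 23.4 ± 2.9 CPM, and Slc11a2, an importer of ferrous iron, 16.7 ± 2.5 against 33 ± 5.5. Cytosolic heat shock chaperones had 3 higher and 3 lower of 28 (10.7% each), under the shares of all genes. Hspb8, a small heat shock protein of chaperone-assisted autophagy, read 346, 475, 534 and 540.4 CPM in the Dicretin livers and 116, 201, 134 and 141 CPM in the calorie-restricted livers, while Hsp90aa1, the inducible HSP90, averaged 252 ± 41.3 with Dicretin, 448 ± 133 under restriction and 175 ± 20.2 CPM in saline. Proteasome subunits had 2 higher and 3 lower of 35 (5.71% and 8.57%), also under those shares. Blood cell markers had 1 higher and 0 lower of 6.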
